A study of Citrus sinensis with 72 samples.

Results

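The albedo (AL), the white inner layer of the peel, was compared at 80 and 50 days after flowering (DAF) in fruits of the 'Fengjie 72-1' navel orange (Citrus sinensis). Poly-A RNA of epicarp (EP), AL, segment membrane (SM) and juice sac (JS), separated by hand, had been sequenced at 6 stages with 3 replicates each, which gave 72 libraries. The 6 libraries used were the 3 of AL1 (50 DAF) and the 3 of AL2 (80 DAF), all from untreated fruits of the same cultivar. A replicate pooled fruits of 3 trees. Per the paper's methods, fruits were taken from each of the selected trees at every stage, so AL1 and AL2 share trees. It is not stated whether a replicate number stands for the same 3 trees at both stages. The libraries were fitted as unpaired, and the p-values measure the spread between such pools. Of 30940 genes in the table, 16158 reached an FPKM of 1 in 3 or more of the 6 libraries and were tested. FPKM is the fragment count of a gene scaled to its length and to the depth of the library. Of the 14782 others, 8089 were above 0 in some of the 6 libraries and 6693 were at 0 in all 6. The tests asked which genes changed in the young albedo between these stages, and whether they changed in the other tissues too.

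The albedo is a spongy parenchyma with large air spaces between its cells, and it is known for its pectin, its flavanone glycosides and the vascular strands that run through it. In a young citrus fruit the peel makes up most of the volume. Cell division passes into cell enlargement as the fruit grows, the pulp expands, and the albedo is later stretched and thinned. The epicarp outside it holds the oil glands, the cuticle and the green plastids, while segment membrane and juice sacs lie inside it. The gene IDs of the table are not paired with names, and 0 of them matched the reference table. Genes are therefore given by ID, and gene groups are those that the 72 libraries define.

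Each of the 6 AL libraries held between 16450997 and 21076170 fragments. The number of genes at an FPKM of at least 1 was 15995, 15922 and 15736 in AL1 and 15692, 15722 and 14774 in AL2. The 10 most abundant genes of each library made up 7.01, 7.87 and 8.76% of its FPKM sum in AL1 and 11.6, 13.1 and 15.9% in AL2. Neither pair of groups overlapped, and the exact permutation test gave a 2-sided p of 0.1 for both, the smallest that 3 against 3 libraries allow. The AL1 libraries correlated with each other at r of 0.952 to 0.985 over the tested genes, and the AL2 libraries at 0.865 to 0.952. AL2 replicate 1 stood apart: of all 72 libraries, its nearest was replicate 1 of AL4 (150 DAF in the labels), at r = 0.951, whereas the other 5 were nearest to a library of their own group. Among the later albedo libraries, AL3 replicate 1 (120 DAF) also went against its label, with AL2 replicate 3 as its nearest at r = 0.926. Both were kept as labelled. The counts of calls in AL and the overlaps are given with and without AL2 replicate 1, and the AL3 levels with and without AL3 replicate 1. The interaction counts are not given without AL2 replicate 1 on its own. AL2 replicate 2 was the AL2 library most like AL1, at r of 0.799 to 0.858, against 0.712 to 0.756 for replicate 1 and 0.676 to 0.735 for replicate 3.

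From 50 to 80 DAF, 4523 genes changed in the albedo, 28% of those tested at a limma adjusted p under 0.05. Of these, 2425 rose (15%) and 2098 fell (13%). The genes that fell did so by more than those that rose. The median log2 fold change was −1.92 among the genes that fell and 1.17 among those that rose. A change of more than 8-fold on the FPKM + 1 scale was seen in 471 genes that fell and 53 that rose. More than 4-fold was seen in 986 and 281. The 6 libraries fell into non-overlapping groups for 7886 of the genes tested (48.8%), and 4520 of the 4523 called genes were among them. The filter let through 424 genes by their AL1 libraries alone, of which 389 fell, and 193 by their AL2 libraries alone, of which 134 rose.

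The split between the directions depended on the scaling and on other choices. The median log2 fold change of all tested genes was 0.16, and 0.04 when libraries were set to a common median ratio. With that scaling 1685 genes rose (10.4%) and 2552 fell (15.8%), so 60.2% of the calls were lower against 46.4% on the deposited scale. Called under both scalings were 1682 genes that rose and 2098 that fell, which is every gene that fell on the deposited scale. The median ratio shifts AL2 downward, so falls could hardly lose their call, and this is no separate support for them. With no filter on low values the split was 2039 higher and 2219 lower. The number of calls and the split also depended on single libraries. In these fits the filter was applied again to the libraries left. Without an AL1 replicate, the 424 genes that had passed by AL1 alone, 389 of them lower, were thus not tested. Without an AL2 replicate this held for the 193 genes of AL2 alone, 134 of them higher. Part of the loss of calls was therefore set by the filter. Without AL1 replicate 1, 2 or 3 the calls were 1761, 1607 or 1489, and without AL2 replicate 2 or 3 they were 1390 higher and 2022 lower or 1374 higher and 1541 lower, and in each of these 5 fits the lower calls were the more numerous. Without AL2 replicate 1, the library nearest to AL4, the calls came to 5950, with 3258 higher and 2692 lower, of which 2203 and 1990 were among the genes called with all 6. Of the genes named below, Cs6g15800 then failed the filter, Cs9g04210 gained a call and no call was lost.

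**Figure D1:**
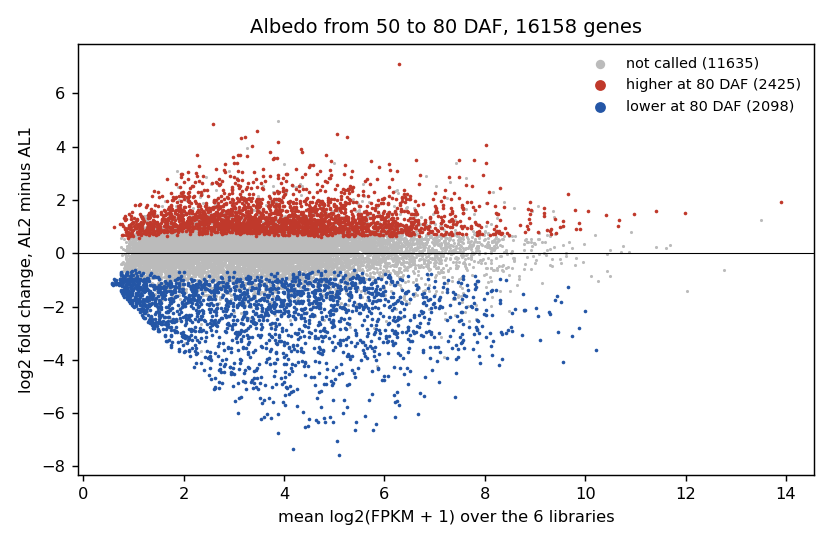
Each point is 1 of the 16158 genes tested, with its mean log2(FPKM + 1) over the 6 libraries on the x axis and the log2 fold change of AL2 against AL1 on the y axis; the 2425 genes that rose and the 2098 that fell are coloured. The genes that fell reach further from 0 (median −1.92) than those that rose (median 1.17).

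The AL2 libraries did not move to the same extent. Among the 2098 genes that fell, replicate 2 was the AL2 library nearest to AL1 in 1419 (67.6%), replicate 1 in 600 (28.6%) and replicate 3 in 79 (3.77%). Among the 2425 that rose, replicate 1 was nearest in 995 (41%), replicate 2 in 987 (40.7%) and replicate 3 in 443 (18.3%). Replicate 3 was thus least often the nearest in either direction, and replicate 2 was most often the nearest among the genes that fell.

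On the log2(FPKM + 1) scale, the highest rise among genes with a mean FPKM of at least 10 at the higher stage was that of Cs6g05140. Its FPKM was 2.80, 2.58 and 20.4 in the AL1 libraries and 1526, 394.7 and 1292 in the AL2 libraries. The lowest AL2 library stood far above the highest AL1 library, and the log2 fold change was 7.12 (SE 0.80, limma adjusted p = 0.0024). It stayed high after 80 DAF, with means of 2532 ± 2274 at AL3, 3096 ± 1189 at AL4, 1308 ± 254.1 at AL5 and 380.9 ± 69.3 at AL6 (SD, n = 3). The wide spread at AL3 came from replicate 1, at 183 against 4722 and 2691. A like change was measured inside the fruit, where the SM mean went from 4.92 to 1430 and the JS mean from 4.47 to 872.3, while that of EP went from 0.392 to 3.19. The change in AL exceeded that in EP by 5.54 on the log2 scale (limma adjusted p = 2.48e-05). The differences from SM (−0.81, adjusted p = 0.49) and JS (−0.20, adjusted p = 0.862) did not pass the same limma test.

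Cs6g15800 was nearly silent at 50 DAF, with FPKM of 0.178, 0.025 and 0.157, which stood for 8, 1 and 7 fragments. At 80 DAF it was at 53.3, 11.5 and 47.8, a log2 fold change of 4.84 (SE 0.55, limma adjusted p = 0.0024). The added 1 holds this value down, and in limma-voom on fragments the gene rose by 8.16, more than Cs6g05140 at 7.41. Here the albedo was ahead of the other tissues. At 80 DAF the mean was 37.5 ± 22.7 in AL, 10 ± 5.99 in EP, 0.582 ± 0.533 in SM and 0.549 ± 0.259 in JS (SD, n = 3). The change in AL was larger than the mean change of the other 3 tissues by 3.58 (SE 0.49, limma adjusted p = 6.33e-05), and larger than that of EP alone by 1.89 (adjusted p = 0.0249). By 120 DAF the gene had reached 23.6 ± 13 in SM and 18 ± 14.9 in JS, against 103.7 ± 78.9 in AL, where replicate 1 was at 12.7 and the others at 148.2 and 150.4.

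On the same scale, and among genes with a mean FPKM of at least 10 at the higher stage, Cs2g07250 and Cs5g07230 had the deepest falls. Cs2g07250 stood at an FPKM of 815.2, 418.2 and 306.3 in AL1 and 0.929, 6.13 and 0.0968 in AL2. Its log2 fold change was −7.58 (SE 0.69, limma adjusted p = 0.00157), and no fragment of it was counted in any library of AL5 or AL6. Cs5g07230 went from 280.0, 226.5 and 196.0 to 0.0547, 1.44 and 0.108, a log2 fold change of −7.36 (SE 0.36, limma adjusted p = 0.000368). In both genes AL2 replicate 2 held the highest AL2 value, and the groups were far apart. At 50 DAF both genes had their highest mean in AL among the 4 tissues. Cs2g07250 averaged 513.2 ± 267.5 in AL1, 163.9 ± 33.2 in SM1, 84.7 ± 43.4 in EP1 and 33.5 ± 30.5 in JS1, and Cs5g07230 averaged 234.1 ± 42.5, 140.9 ± 9.91, 13.5 ± 10 and 41.2 ± 35.2 in the same order (SD, n = 3). In SM the means went to 0.239 and 0.25, lower than the 2.38 and 0.535 of AL2, and the difference between the changes of AL and SM did not pass the test (−0.53 for each gene, limma adjusted p = 0.718 and 0.63).

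**Figure D2:**
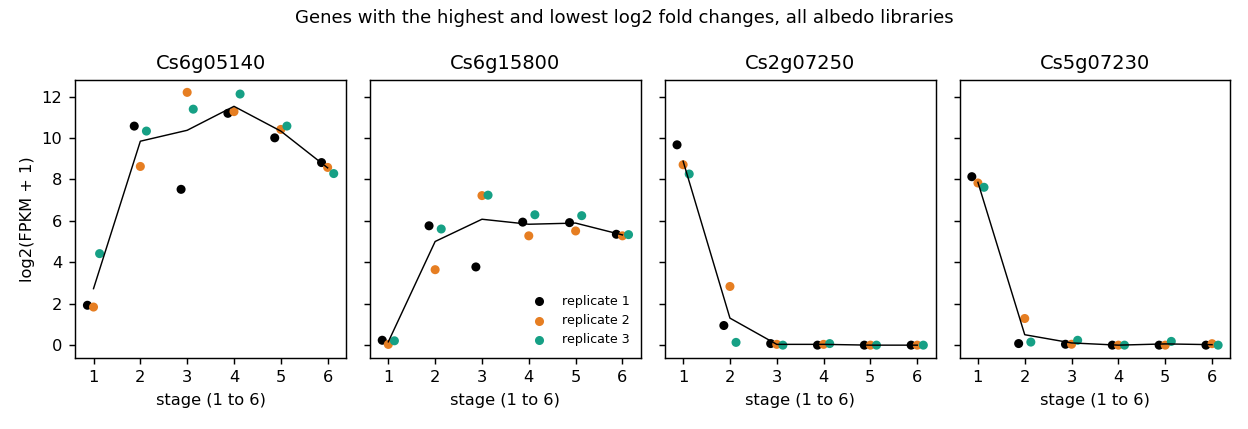
Genes with the highest and lowest fold changes on the log2(FPKM + 1) scale, among those with a mean FPKM of at least 10 at the higher stage. Their levels, as log2(FPKM + 1), are shown in every albedo library by stage from 1 to 6. Points are coloured by replicate, and lines run through the stage means of the log values. In FPKM, Cs6g05140 moves from between 2.58 and 20.4 at stage 1 to between 394.7 and 1526 at stage 2, while Cs2g07250 moves from between 306.3 and 815.2 to between 0.0968 and 6.13.

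Cs1g07330 was among the 2 most abundant genes at both stages. Its FPKM was 8241, 5572 and 10311 in AL1 and 26489, 29539 and 34530 in AL2, so that the groups were well apart (log2 fold change 1.94, SE 0.31, limma adjusted p = 0.00627), and it reached a mean of 71321 at AL6. Cs6g11770, the other of the highest genes at 50 DAF, went from 8203, 8066 and 9533 to 5570, 6585 and 4723. The groups did not overlap, but the difference of −0.62 did not pass the test (limma adjusted p = 0.104). Cs9g04210, second in AL2, was at 4852, 8422 and 10584 in AL1 and 9943, 18999 and 30950 in AL2. Its groups overlapped and the difference of 1.25 did not pass either (limma adjusted p = 0.0954), although it did without AL2 replicate 1, at 1.68 (adjusted p = 0.0248).

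Loss of all fragments was seen in 1 direction. An FPKM of at least 1 in all 3 AL1 libraries with no fragment in any AL2 library was found in 16 genes, and the reverse in 0. All 16 were called, and their direction was set by how they were chosen. They had 43 to 778 fragments over the 3 AL1 libraries, so against a floor of 3 fragments summed over the AL2 libraries they were at least 16-fold to at least 285-fold lower. The floor covers counting error only. Cs9g17460, at 17.8, 5.08 and 1.94 in AL1, was at least 285-fold lower, and orange1.1t05133, at 11.5, 2.40 and 2.67, at least 214-fold lower. In both, AL1 replicate 1 held the highest value. Without AL2 replicate 1 such genes numbered 20, and 1 gene had an FPKM of at least 1 in AL2 replicates 2 and 3 and no fragment in AL1. In 14 of the 16 genes the mean FPKM stayed under 0.5 at every later albedo stage. The exceptions, named after their values were seen, were Cs6g20950 with a mean of 4.48 at AL5 and Cs2g10430 with 0.706 at AL6.

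The young albedo, like the other young tissues, carried genes that are later enriched in the epicarp. A gene was put in a tissue's list when its mean log2(FPKM + 1) over stages 3 to 6 was at least 2 higher (4-fold) than in each other tissue, which gave 595 genes for EP. None of the AL1 or AL2 libraries entered the rule. It does require AL to be low at the later stages, so a listed gene that was high at 50 DAF had to fall by some later stage, and the counts are a description of when, not independent evidence of direction. The summed FPKM of the list was 43751, 39570 and 36666 in AL1 and 3062, 14431 and 7533 in AL2. It was thus 6.27% of the FPKM sum at 50 DAF and 1.24% at 80 DAF, and the group means were 39996 at AL1, 8342 at AL2, 6283 at AL3 and 3040 at AL6. At AL3 replicate 1 was at 11402 and the others at 4087 and 3360. In EP itself the sum was 73637 ± 7669 at EP1 and 67086 ± 8794 at EP2 (SD, n = 3). Of the 595 genes, 327, 305 and 308 had an FPKM of at least 1 in the AL1 libraries and 203, 255 and 169 in the AL2 libraries. AL2 replicate 2 was the highest AL2 library in both measures.

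Of the 595 listed genes, 306 passed the filter and were tested. Of these, 179 fell (58.5%, where the background was 13% of all tested genes), 13 rose (4.25%, background 15%) and 114 did not pass the test. Their median log2 fold change was −1.90, against 0.16 over all tested genes. Without AL1 replicate 1, 2 or 3 the number that fell was 91, 102 or 99, and without AL2 replicate 1 it was 182, with 22 that rose. Listed genes that had passed the filter by AL1 alone were not tested without an AL1 replicate. Part of this drop may thus come from the filter. A list built from SM and JS alone, so that AL had no part in the rule, was added after the data were seen. It held 796 genes, of which 477 were tested. There 231 fell (48.4%) and 38 rose, with a median of −1.38, and its summed FPKM went from 57609, 52076 and 49552 in AL1 to 6436, 23552 and 16984 in AL2. Of all 2098 genes that fell in AL, 1919 were outside the EP list of 595.

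**Figure D3:**
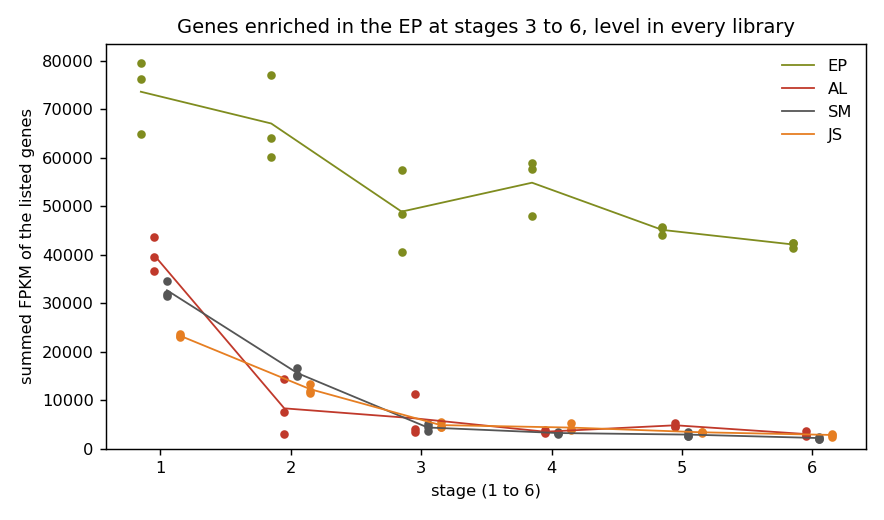
Summed FPKM of the 595 EP-enriched genes in each library of the 4 tissues by stage (1 to 6, 50 to 220 DAF), with points for libraries and lines for stage means. The AL1 libraries lie between 36666 and 43751 and the AL2 libraries between 3062 and 14431, while the EP means are 73637 at stage 1 and 67086 at stage 2.

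The EP-list genes did not stand at a common fraction of their EP level. For the 499 listed genes with a mean FPKM of at least 5 in EP1, the AL1 mean was 7.16% of the EP1 mean in the median. It was 0.188% at the 10th percentile and 379% at the 90th, and 88 genes were higher in AL1 than in EP1. At 80 DAF the median over 504 genes was 2.43%, the 90th percentile 34.3%, and 9 genes were higher in AL than in EP. The inner tissues held list genes at 50 DAF too. Their median was 12.3% of the EP1 mean in SM1 and 10.4% in JS1, above that of AL1, with 98 and 67 genes higher than in EP1. The list was at a summed FPKM of 32695 in SM1 and 23322 in JS1, which went to 15617 in SM2 and 12282 in JS2. The 10 highest list genes made up 46.1% of the list's sum in AL1. How much of the list's level came with EP tissue left on the albedo was not tested, and in bulk tissue fewer cells of a type and less RNA per cell cannot be told apart.

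Cs2g07250, given above, was the listed gene with the deepest fall on the log2(FPKM + 1) scale. The steepest rise in the list was that of orange1.1t03578. Its FPKM was 0.549, 1.20 and 1.29 in AL1 and 13.2, 35.4 and 121.6 in AL2, with a log2 fold change of 4.33 (SE 0.71, limma adjusted p = 0.00678). The AL2 libraries spanned a wide range but all lay above AL1. The mean was 56.7 ± 57.3 at AL2, or 24.3 without AL2 replicate 3, and 33.1 ± 4.21 at AL3, so the step between these stages depended on that library. It was lower later, at 12.6 ± 3.05 at AL4 and 1.70 ± 0.568 at AL6. In EP it went from 31.2 ± 4.37 to 91.1 ± 14.7, so that at 80 DAF AL replicate 3 exceeded the EP mean, whereas the SM and JS means stayed under 0.25 at both stages and no library of theirs was above 0.404.

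The lists of the other tissues were short. The AL list held 1 gene, Novel00378, at 110.3, 134.0 and 159.6 in AL1 and 212.1, 220.7 and 376.8 in AL2. All AL2 libraries were above all AL1 libraries and the log2 fold change was 0.96 (SE 0.29), just past the threshold (limma adjusted p = 0.0478). The call was lost without any AL1 replicate, without AL2 replicate 2 or 3, under median-ratio scaling (adjusted p = 0.135), with no filter (0.0693) and with equal FPKM sums (0.0509). Of 7 tested genes of the SM list, 2 rose (28.6%, background 15%) and 0 fell (background 13%), with a median of 0.41, and the list's summed FPKM was 78, 60 and 68 in AL1 and 183, 84 and 127 in AL2. Of 14 tested genes of the JS list, 2 rose (14.3%) and 1 fell (7.14%), shares at or below the background of 15% and 13%. The median was 0.93, and the list's sum was 154, 113 and 131 against 418, 728 and 1027. The sums of these lists did not overlap between AL1 and AL2 and were small beside that of the EP list.

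Single genes of the short lists went in either direction. Cs2g07630 of the SM list stood at 11.4, 12 and 10.3 in AL1 and 30.2, 27 and 18 in AL2 (log2 fold change 1.07, limma adjusted p = 0.0212). Cs8g18020 of the JS list rose from 3.25, 1.48 and 2.01 to 29.3, 9.04 and 8.30 (2.16, limma adjusted p = 0.0184). Both groups were free of overlap, but each call was lost without any 1 of the AL1 replicates, and that of Cs2g07630 also without AL2 replicate 2 (adjusted p = 0.0632). The listed gene of JS that fell was orange1.1t01749. It was at 54.3, 31.3 and 22.1 in AL1 and 0.724, 3.59 and 0.337 in AL2 (−3.98, SE 0.53, limma adjusted p = 0.00372). In JS its mean went up from 49.1 to 95.9, while it went down from 35.5 to 21.5 in EP and from 29.2 to 13.7 in SM. The change in AL differed from the mean change of the other tissues by −3.71 (SE 0.45, limma adjusted p = 2.37e-05).

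By the share of AL genes with a like call and by the correlation of changes, the albedo moved most like the segment membrane. Seen from the other tissue, more of the JS genes that rose (46.2%) than of the SM genes (43.5%) also rose in AL. From fits of their own 6 libraries, 3491 genes rose and 5627 fell in SM, 1672 and 5504 in JS, and 1135 and 1669 in EP. Of the genes that rose in AL, 1518 also rose in SM, 62.6% of the AL genes (21.2% of all genes tested in SM rose) and 43.5% of the SM genes (15% of all tested in AL rose). Of those that fell, 1781 also fell in SM, 84.9% of the AL genes (background 34.2%, the share of all genes tested in SM that fell) and 31.7% of the SM genes (background 13%, the share that fell in AL). With JS the shared genes were 772 that rose, 31.8% of the AL genes (background 10.3%) and 46.2% of the JS genes, and 1402 that fell, 66.8% of the AL genes (background 34%) and 25.5% of the JS genes. With EP they were 356 that rose, 14.7% of the AL genes (background 6.61%) and 31.4% of the EP genes, and 422 that fell, 20.1% (background 9.72%) and 25.3%. The EP counts depended on EP2 replicate 1. With all libraries but that one, 2044 genes rose and 4254 fell in EP, and 663 genes that rose and 664 that fell were shared with AL, 27.3% and 31.6% of the AL genes, against backgrounds of 12.1% and 25.2%. The total in EP was 729 to 1321 without any other of its libraries, and that in JS 4272, 4689 or 4454 without JS1 replicate 1, 2 or 3. Across genes, which are not independent replicates, the change in AL correlated with that in SM at r = 0.78, in JS at 0.65 and in EP at 0.37. The value for EP includes EP2 replicate 1. No background share was computed for genes called alike in all 4 tissues. Of the 16158 genes tested in AL, 210 rose in all 4 (8.66% of those that rose in AL) and 309 fell in all 4 (14.7% of those that fell in AL). Without AL2 replicate 1 these were 297 and 430, the shares of the AL genes were 61.3% and 84% with SM, 30.2% and 66.2% with JS and 18% and 22.1% with EP, and r was 0.79, 0.66 and 0.46.

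**Figure D4:**
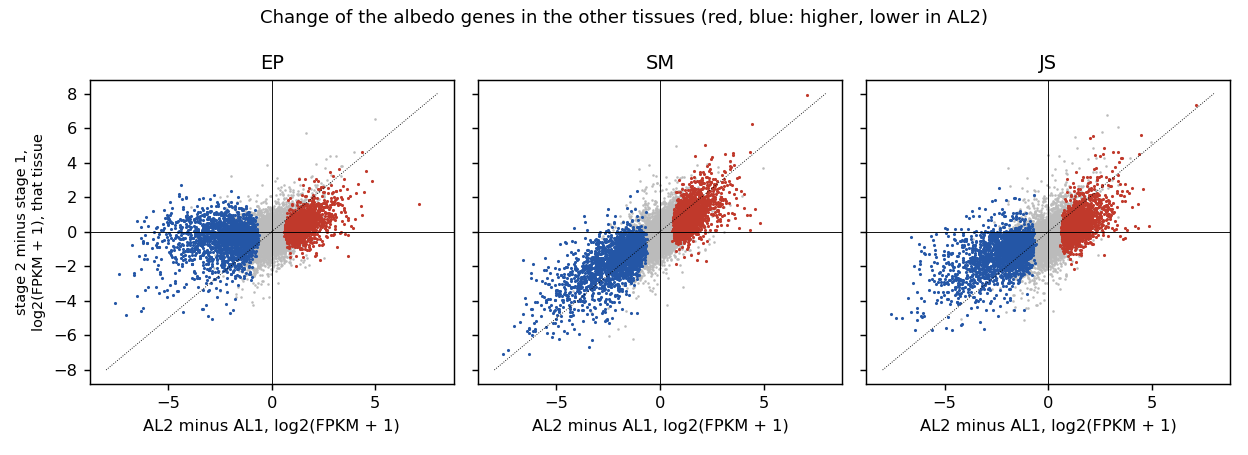
Change from stage 1 to stage 2 in EP, SM and JS, on the log2(FPKM + 1) scale (y axis), against the change in AL (x axis), 1 point per gene, red for those that rose in AL and blue for those that fell, with a dotted line where both changes are equal. The points follow the AL change most closely in SM (r = 0.78), less so in JS (0.65) and least in EP (0.37).

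The difference between tissues was tested directly with an interaction term over 19054 genes. All groups of this fit shared the same estimate of the spread for each gene. The SE of the interaction could thus be below that of the AL change alone (Cs1g09420, 0.81 against 1.11) or above it (orange1.1t01729, 0.61 against 0.25). Where AL had the wider spread, the fit can understate it, and the adjusted p is then too small for AL. The change in AL exceeded the mean change of EP, SM and JS in 3444 genes (18.1%) and fell short of it in 1429 (7.5%). This split was reversed by the scaling. With a common median ratio, 992 were higher and 2229 lower, since the median difference over all genes moved from 0.33 to −0.01. Called under both scalings were 992 higher and 1429 lower. Without AL1 replicate 3, 2241 were higher on the deposited scale. Against SM alone the change was higher in 1127 genes (5.91%) and lower in 503 (2.64%), against EP in 2807 (14.7%) and 1991 (10.4%), and against JS in 3750 (19.7%) and 1121 (5.88%). These splits turned with the scaling too, to 490 higher and 996 lower against SM, 1283 and 2610 against EP, and 1138 and 1914 against JS. The total of 1630 for SM was 1018 and 735 without AL1 replicates 2 and 3, 648 without SM1 replicate 2, and 932 and 819 without SM2 replicates 2 and 3. The albedo rose, and more so than each of the other tissues, in 227 of the 16158 genes tested in AL. Of these 227, 61 were called under both scalings. The albedo fell, and more so than each, in 174 genes, all called under both, which the downward shift of the median ratio favoured. With the median-ratio scaling alone the counts were 62 and 360, so here too the larger direction turned. These counts depended on single libraries. They were 127 and 103, 109 and 73, or 70 and 61 without AL1 replicate 1, 2 or 3, and 116 and 104 without SM1 replicate 2. The higher count was 134 without SM2 replicate 3, and the lower count 428 without AL2 replicate 2. Opposite directions with a called interaction were counted on the deposited scale. In AL and JS they were found in 87 genes that rose in AL (3.59%) and 35 that fell (1.67%). Of all genes tested in JS, 34% fell and 10.3% rose. In AL and EP they were found in 27 (1.11%) and 100 (4.77%), where 9.72% of all genes tested in EP fell and 6.61% rose. In AL and SM they were found in 20 and 18, where 34.2% of all genes tested in SM fell and 21.2% rose.

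Among the genes that fell, the largest differences from the other tissues were those of Cs1g09420 and orange1.1t01729. Cs1g09420 was at an FPKM of 414.5, 397.2 and 451.7 in AL1 and 0.838, 31.1 and 0.305 in AL2 (log2 fold change −6.63, SE 1.11, limma adjusted p = 0.00714). Again AL2 replicate 2 was the highest of its group. In EP the mean went from 2517 to 451.3, in SM from 19.1 to 5.49 and in JS from 92.3 to 77.0. The change in AL differed from their mean change by −5.17 (SE 0.81, limma adjusted p = 0.000248). orange1.1t01729 was near 100 in every AL1 library, at 97.7, 100.1 and 101.4, and at 0.797, 0.267 and 0.0751 in AL2 (−6.22, SE 0.25, limma adjusted p = 0.000341). It averaged only 0.648 in EP1, 4.78 in JS1 and 16 in SM1, and its change in AL differed from the mean of the others by −5.02 (SE 0.61, limma adjusted p = 2.22e-05).

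Among those that rose, the largest differences from the other tissues were those of orange1.1t03578, at 3.73 (SE 0.51, limma adjusted p = 6.4e-05), and Cs7g03630, at 3.61 (SE 0.84, adjusted p = 0.00489). The second place depended on the scaling. With a common median ratio the difference was 3.2 for Cs7g03630 and 3.5 for Cs6g15800. Cs7g03630 stood at 4.25, 9.55 and 8.29 in AL1 and 673.7, 48.1 and 32.3 in AL2, so its log2 fold change of 3.69 (SE 1.06, limma adjusted p = 0.0388) depended on AL2 replicate 1. Without that library it was 2.34, and without any AL1 replicate or AL2 replicate 2 the call was lost (adjusted p of 0.0505 to 0.135), as it was with no filter (0.0646) and in limma-voom (0.0506). Its mean at AL4 was 1882. AL2 replicate 1, the library nearest to AL4 replicate 1 over all genes, thus also held the AL2 value nearest to AL4 in this gene. The difference from SM alone, where the mean went from 18.5 to 68.1, did not pass the test (1.73, adjusted p = 0.281).

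Most of the changed genes kept a stage mean beyond the AL1 libraries after 80 DAF. This does not show that the AL2 level itself was kept. The stages after AL2 are given as a description, since the same AL1 libraries that defined the genes are the point of reference. The same shares over all tested genes were not computed, so those below are not shown to be particular to the called genes. The 2425 genes that rose had a median FPKM of 8.13 at AL1, 23.1 at AL2, 24.1 at AL3, 19.1 at AL4, 16.8 at AL5 and 18.1 at AL6. The stage mean was still above the highest AL1 library in 99.3% of them at AL3, 94% at AL4, 75.9% at AL5 and 78.6% at AL6. All 3 libraries of the stage were above it in 87.2, 70.6, 66.1 and 70.4%. Their highest stage was AL3 in 783 genes (32.3%), AL2 in 744 (30.7%) and AL6 in 410. The 2098 genes that fell had a median of 26.8 at AL1, 4.59 at AL2, 3.42 at AL3, 3.69 at AL4, 4.43 at AL5 and 4.37 at AL6. The mean stayed below the lowest AL1 library in 99.4, 94.8, 90.5 and 90.9% of them at AL3, AL4, AL5 and AL6. All 3 libraries of the stage were below it in 95.4, 91.2, 86.1 and 87.5%. Without AL3 replicate 1 the AL3 medians were 23.7 for the genes that rose and 3.25 for those that fell, with 97.8% and 98.7% of the genes beyond AL1.

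**Figure D5:**
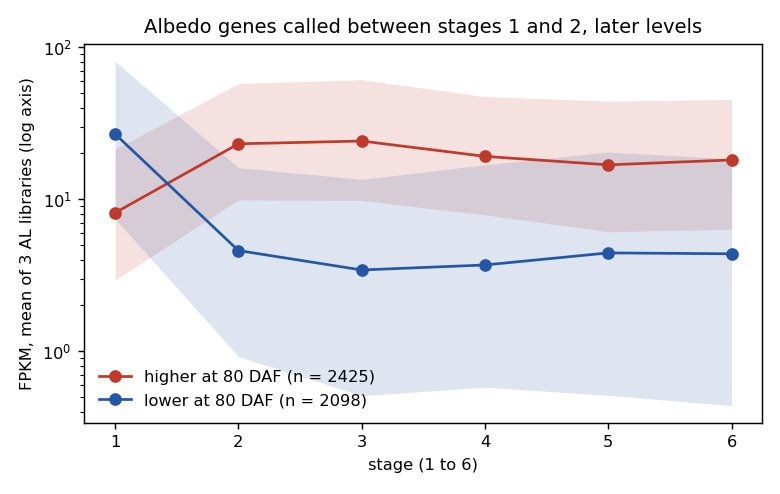
Median FPKM (log axis) at each of the 6 albedo stages of the 2425 genes that rose and the 2098 genes that fell between stages 1 and 2, with shading from the lower to the upper quartile over the genes. The medians go from 8.13 to 23.1 and from 26.8 to 4.59 between these stages, and end at 18.1 and 4.37 at stage 6.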

How the data were processed

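Per the paper's methods and the submitters' notes, reads were mapped to the C. sinensis genome with TopHat2 and counted with HTSeq 0.6.1 (Cufflinks is also listed), and the authors deposited FPKM values per gene and library. In the study's table of RNA quality, the first replicate of AL1 lay below the RIN limit of its methods. The authors tested counts with DESeq2. Here log2(FPKM + 1) entered limma 3.58.1 (R 4.3.3, trend and robust settings) for the 6 libraries, with Benjamini-Hochberg adjustment over all 16158 tested genes and a threshold of 0.05. Other tissues were fitted alike, and interactions on the 24 libraries of stages 1 and 2. Fold changes are on the log2(FPKM + 1) scale, which understates changes of low genes.

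Fragments were recovered as whole multiples of the FPKM step for 27759 of the 27759 genes above 0, within 0.0001 fragments. They came to 16450997 to 21076170 per AL library and served limma-voom, an alternative. The procedures were tested on simulated data. Strand, shared reads of near-identical genes and overlapping genes could not be checked.

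The comparison, lists and rules were chosen with earlier results of these data known. Named genes were the called ones with the highest and lowest fold change or interaction, no overlap between AL1 and AL2 and a mean FPKM at the higher stage of 10 or more, the 2 most abundant per stage, and the extremes of each tissue list, with at most 2 IDs printed per direction. Lists by gene product (cell cycle, cell wall, phenylpropanoid, hormone, photosynthesis, sugar, starch, aquaporin, heat shock) and named cell markers could not be run, since 0 IDs matched. The same numbers in AL1 and AL2 did not deviate together (r of 0.12, −0.03 and 0.02), so replicates were not paired. Alternatives were the pseudocount, the filter, 2 scalings, limma-voom, plain eBayes, a fit of all 24 groups, a replicate block, other list rules and each library left out.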

Additional observations from a re-analysis of the deposited data

Results flagged for a closer look

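A difference between tissues in the change from 50 to 80 DAF was found, by the interaction test, in 4873 genes for AL against the mean of EP, SM and JS. With median-ratio scaling it was found in 3221.

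Of the genes named in the text, 9 passed the same limma test, under both scalings. The change in AL was the higher one in orange1.1t03578 by 3.73, in Cs7g03630 by 3.61 and in Cs6g15800 by 3.58 on the log2 scale. It was the lower one in Cs1g09420 (−5.17), orange1.1t01729 (−5.02), orange1.1t01749 (−3.71), Cs5g07230 (−2.59), Cs8g18020 (−2.39) and Cs2g07250 (−2.27). Cs2g07250 and Cs5g07230 also went to near 0 in SM and JS from a lower start, and the added 1 limits the fall measured there. The difference of Cs2g07250 was smaller in limma-voom on fragments, at −0.65 (adjusted p = 0.741), and with a pseudocount of 0.1, at −1.53 (adjusted p = 0.268). That of Cs5g07230 was not smaller, at −2.93 and −2.75 in the same order, but only the latter passed (adjusted p = 0.0743 and 0.0244). A deeper fall in AL is thus not shown for Cs2g07250, nor firmly for Cs5g07230, where the call depended on the method. The other 7 differences passed under both alternatives, which were added after the data were seen. Cs7g03630 is among these 7, but its change in AL depended on AL2 replicate 1. Its interaction without that library is not given. Cs8g18020 rose in AL, and its change there differed from that in JS by −3.41 (limma adjusted p = 0.00353). For Cs5g07230 and Cs2g07250 the change in AL differed from that in EP by −4.91 and −3.45, and the difference from SM did not pass the test.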

How the results depend on the processing

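Calls in AL were 4523 on the deposited scale and lay within 1.5 times of that under the pseudocount of 0.1 (4337), no filter (4258), equal FPKM sums (4154), median ratios (4237), limma-voom (4339), plain eBayes (4549) and, in an alternative added after the data were seen, without the EP-list genes (4293). A single fit of 24 groups, which shares the spread of all 72 libraries, called 8887, with 4931 higher and 3956 lower, and 5282 in EP. Replicate numbers were not shown to pair the libraries, since 1 of 3 AL1 libraries correlated best with its own number. With a replicate block, 3699 genes were called in AL (1767 higher, 1932 lower) and 1715 in EP, and the call of Cs7g03630 was lost (adjusted p = 0.0568). Median ratios took the interaction from 4873 calls to 3221, with 992 higher and 2229 lower. With an 8-fold rule, 69 genes of the EP list fell (68.3% of those tested) and 2 rose. In the EP list that did not use AL, 38 rose and the median was −1.38.

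With each library left out in turn, calls in AL ranged from 1489 to 5950, with 664 to 3258 higher and 825 to 2692 lower. The EP list had 91 to 184 lower and 8 to 22 higher. The interaction ranged from 3402 (without AL1 replicate 3) to 6232 (without EP2 replicate 1), with 2241 to 4697 higher and 1147 to 1687 lower. Calls in EP ranged from 729 to 6298 and in JS from 4272 to 7426. Of the named genes' fold changes, 154 values under alternatives kept their call, 22 lost it, 4 gained one, 24 of genes not called stayed so and 0 turned in sign.

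With 3 libraries a group, calls depend on the spread of AL2, and an AL1 group of 2 libraries gave the lowest counts. In such a fit, genes that had passed the filter by AL1 alone are not tested. The groups of the interaction shared the same estimate of the spread, and tissues of the same fruits were taken as independent in it. Stages of the same trees were so taken in every fit without a replicate block.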

Other observations

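Changed genes were alike in length and spread over the ID series. The median transcript length recovered from the FPKM steps was 1716 bases for the genes that rose, 1686 for those that fell and 1715 for all tested. By ID prefix, 11.6 to 16.2% of the tested genes rose and 11.1 to 15.2% fell. Genes with consecutive IDs moved the same way more often than the tested genes at large. Over 8801 pairs of neighbouring tested IDs, the next gene also fell in 21.7% of the cases where the first did, against 12.8% over all pairs, and it also rose in 20.2% against 15.5%. Opposite calls were found in 279 pairs. Near-identical neighbours could share reads, which was not tested.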
